A study of Homo sapiens with 2 samples.

Results

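The genes described here are 8 chemokine genes that epithelial cells are known to express, CXCL1, CXCL2, CXCL3, CXCL5, CXCL8, CCL20, CXCL16 and CX3CL1. Every probe set annotated to one of these symbols and to no other gene was taken, which gave 17 of the 44988 single-gene probe sets on the array and 8 of 18132 genes. RNA came from HCT116, an established epithelial cell line of a human colorectal carcinoma. Cells given lentivirus sh-RAP1-4#, which carries a single shRNA against RAP1 (shRAP1), were set against cells given the lentivirus with a negative-control shRNA (shNC). Both cultures were infected at a multiplicity of infection of 20 and harvested after 72 h, so the controls carried a lentivirus too. Each group was 1 culture on 1 array.

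Chemokines are small secreted proteins that guide leukocytes along a concentration gradient by binding receptors coupled to G proteins. Epithelial cells of the gut switch several of them on through NF-kB and AP-1 when they meet microbes, IL-1 or TNF, and colorectal carcinomas often produce the neutrophil-attracting ones. CXCL16 and CX3CL1 differ from the others in that they are made as membrane-anchored proteins, from which the proteases ADAM10 and ADAM17 release a soluble form.

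With 1 array per group no difference could be tested, no p-value was computed, and no value has a replicate check. All differences are shRAP1 minus shNC of log2 probe set values, and levels are linear intensities unless log2 is stated. A probe set counted as measured when at least 1 array gave it 78.0 or more, the median over both arrays (6.29 on the log2 scale), called the floor below. Each gene was represented by its brightest such probe set, and a size of 1.5-fold (0.585 on the log2 scale) was counted. In this bulk RNA, fewer cells making a chemokine and less RNA in each cell cannot be told apart.

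The targeted gene was checked before the chemokines. TERF2IP, the telomere protein also called RAP1, stood at 624 on the shRAP1 array and 1311 on the shNC array, or 47.6% of the control, on a single probe set. RAP1A and RAP1B, the small GTPases that share the name, stood at 88.0% and 93.3% of the control on their brightest probe sets. Among 10437 measured genes the SD of the differences was 0.157 and their median 0.010. Of 7 colon epithelium markers 6 passed the floor, with a summed level of 31728 in shRAP1 and 30955 in shNC, and VIL1 did not. Of the leukocyte markers 2 of 7 on the array passed it, HLA-DRA and CD68, and the list summed to 436 in shRAP1 and 384 in shNC. Of 8 fibroblast and endothelial markers 2 passed it, VWF and KDR, and the list summed to 423 in shRAP1 and 399 in shNC. Their part in the chemokine differences was not tested. The pan-leukocyte marker PTPRC and the fibroblast marker DCN lay below the floor on both arrays.

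Upstream DNA is shown for 5 of the genes. In CXCL8, CXCL1, CXCL2 and CXCL5 it carries GGAATTTCC, an element of the kind through which NF-kB acts on such genes. In CCL20 the only motif matched was GGG and CCC separated by any 4 bases, which 17.8% of all windows hold. The values of CXCL8, CXCL1, CXCL2 and CCL20 were lower in shRAP1, while CXCL5 lay below the floor. Any part of NF-kB in these values was not tested. The sequences are the 140 bases before the annotated gene start, 5′ to 3′ on the gene's own strand, from RefSeq on GRCh38.p14. Capitals mark the matches to GGAATTTCC, to the AP-1 element TGANTCA and, in CCL20, to GGG and CCC separated by any 4 bases. CXCL8 lies at chr4:73740429-73740568 on the plus strand, CXCL1 at chr4:73869253-73869392 on the plus strand, CXCL2 at chr4:74099196-74099335 on the minus strand, CXCL5 at chr4:73998678-73998817 on the minus strand and CCL20 at chr2:227813702-227813841 on the plus strand.
CXCL8: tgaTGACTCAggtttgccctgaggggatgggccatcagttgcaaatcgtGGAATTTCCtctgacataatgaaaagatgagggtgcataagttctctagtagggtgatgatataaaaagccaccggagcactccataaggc
CXCL1: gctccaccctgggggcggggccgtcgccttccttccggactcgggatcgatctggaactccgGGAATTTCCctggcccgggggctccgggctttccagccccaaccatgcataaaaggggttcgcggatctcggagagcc
CXCL2: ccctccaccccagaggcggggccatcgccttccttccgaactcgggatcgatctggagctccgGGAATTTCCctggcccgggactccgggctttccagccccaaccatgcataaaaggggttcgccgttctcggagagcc
CXCL5: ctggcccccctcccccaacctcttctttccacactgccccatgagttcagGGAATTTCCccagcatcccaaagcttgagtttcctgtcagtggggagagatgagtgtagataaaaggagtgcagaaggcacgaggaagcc
CCL20: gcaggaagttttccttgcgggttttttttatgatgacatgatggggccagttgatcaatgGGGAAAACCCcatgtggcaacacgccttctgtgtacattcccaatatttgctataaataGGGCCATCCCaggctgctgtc

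CXCL8 and CCL20 were lower in RAP1-knockdown cells by more than 1.5-fold, CXCL1 was lower by less than that, and CXCL16 and CX3CL1 stood close to the control level. Of the 6 genes past the floor, 5 were lower and 1 was higher, against 46.8% of all measured genes lower and 53.2% higher. By at least 1.5-fold 2 of the 6 were lower, against 0.172% of all measured genes, and 0 were higher, against 0.211%. At 2-fold 0 of the 6 were lower, against 0.0192%. The median difference of the 6 was −0.25, beside 0.010 for all measured genes. It was −0.10 without the _x_at and _s_at probe sets, which can match several transcripts, and −0.10 when values under the floor were set to the floor. CCL20 passed the floor only through its higher shNC value, so these counts describe the measured genes and not the whole family. CXCL3 and CXCL5 had no probe set past the floor.

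**Figure D1:**
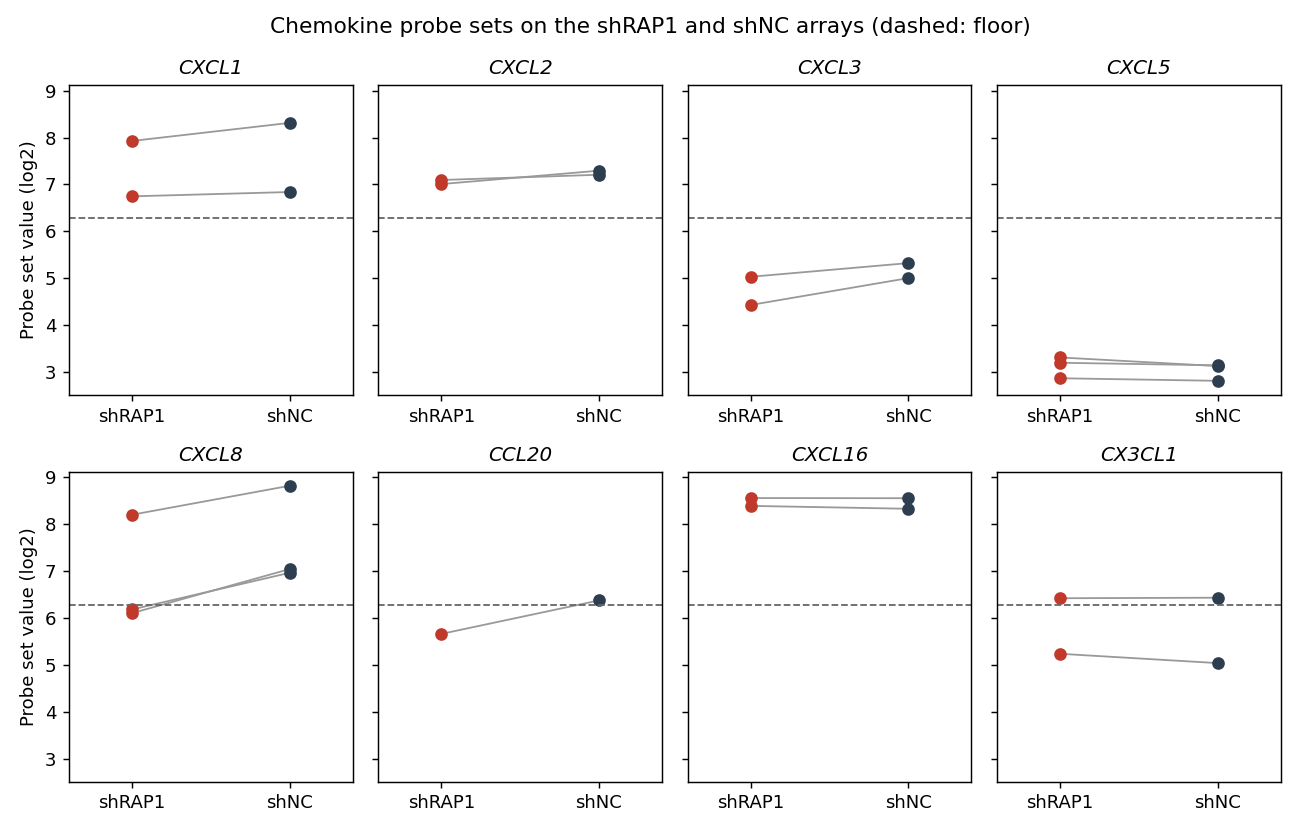
Log2 value of each probe set of the 8 chemokine genes on the shRAP1 array (left, red) and the shNC array (right, dark), 1 point per array, with a line joining the 2 values of a probe set and the floor of 6.29 dashed. The 3 CXCL8 lines and the CCL20 line have a clearly lower shRAP1 end, while those of CXCL16 are close to level, CXCL3 and CXCL5 lie below the floor, and CX3CL1 has 1 probe set on each side of it.

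CXCL8, also called interleukin 8, is the main attractant of human neutrophils and binds CXCR1 and CXCR2. Its brightest probe set read 295 on the shRAP1 array and 452 on the shNC array, 65.2% of the control, a difference of −0.62. The other probe sets, both made from the same source transcript, read 72.7 in shRAP1 against 125 in shNC and 68.9 in shRAP1 against 132 in shNC. All 3 probe sets were thus lower in shRAP1, and the dimmer ones showed the larger differences, −0.78 and −0.94. Both dimmer probe sets ended below the floor in shRAP1, and counted from the floor itself they differed by −0.68 and −0.76. At the gene level CXCL8 ranked 11 from the lowest of 10437 genes, and its difference was −3.85 times the SD of 0.160 among the 501 genes nearest in brightness. That SD is a spread among genes, not an experimental error. Of 3319 genes with at least 3 probe sets past the floor, 2 had all of them at least 1.5-fold lower, CXCL8 and the vitamin D hydroxylase gene CYP24A1. This count was made after the values were seen. CXCL8 entered it only because both dimmer probe sets passed the floor in shNC, so lower shRAP1 values were built into its selection.

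CXCL1, CXCL2 and CXCL3 are close paralogs that also attract neutrophils through CXCR2. CXCL1 read 243 in shRAP1 and 318 in shNC on its brightest probe set, 76.6% of the control and a difference of −0.38, rank 99 from the lowest. Its other probe set read 107 in shRAP1 and 114 in shNC, a difference of −0.092, so the size of the CXCL1 change depends on the probe set. The gap of 0.293 between these probe sets was matched or exceeded by 4.68% of the 6135 genes that had at least 2 measured probe sets, whose median gap was 0.072.

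CXCL2 read 137 in shRAP1 and 148 in shNC on its brightest probe set, a difference of −0.11 that ranked 1934 from the lowest. Its other probe set, from the same source sequence, read 129 in shRAP1 and 157 in shNC, a difference of −0.28. The mean log2 value of both was 7.15, so which of them stands for the gene rests on a near tie, and with log2(value + 16) the CXCL2 difference was −0.26. Both CXCL2 probe sets were lower in shRAP1, and the first difference was −0.69 times the SD of 0.163 among genes of like brightness. A further probe set that carries both CXCL1 and CXCL2, and was used for neither, read 95.7 in shRAP1 and 122 in shNC, a difference of −0.35. The brighter CXCL1 probe set has a name ending in _s_at and the second CXCL2 probe set one ending in _x_at, the marks of probes that can match several transcripts. How the RNA of 1 paralog adds to the signal of another was not tested.

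CXCL3 stayed below the floor on both arrays, so it has levels but no measured difference. Its probe sets read 32.7 in shRAP1 against 40.0 in shNC and 21.6 in shRAP1 against 32.1 in shNC. Both were lower in shRAP1, as were 44.9% of all probe sets below the floor.

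CXCL5, another CXCR2 ligand that epithelial cells make, was close to the bottom of the intensity scale. Its 3 probe sets read between 7.30 and 9.93 in shRAP1 and between 7.03 and 8.84 in shNC. All 3 were slightly higher in shRAP1, by 0.055 to 0.18, at levels far below the floor. A probe set shared with the chromatin-reader gene GLYR1 read 169 in shRAP1 and 175 in shNC and was not assigned to CXCL5.

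CCL20 attracts dendritic cells and lymphocytes that carry CCR6 and is a product of the epithelium that overlies gut lymphoid tissue. Its only probe set read 50.7 in shRAP1 and 83.1 in shNC, 61.0% of the control and a difference of −0.71. This placed CCL20 at rank 5 from the lowest of 10437 genes and at −3.15 times the SD of 0.226 among the 501 dimmest measured genes. The shNC value lay just above the floor and the shRAP1 value below it. A lower shRAP1 value was thus built into its selection, and the rank and the multiple of the SD are descriptions only. With values under the floor set to the floor, the CCL20 difference was −0.092, so its direction was seen on 1 dim probe set and its size is uncertain.

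CXCL16 and CX3CL1, the membrane-anchored members, did not show the lower values of CXCL8 and CCL20. This is not particular to them, since CXCL2 differed by −0.11 on its brightest probe set, less than the SD of 0.163 at its brightness. Its other probe set differed by −0.28. CXCL16, the ligand of CXCR6, read 377 in shRAP1 and 376 in shNC on its brightest probe set and 336 in shRAP1 and 322 in shNC on the other. Its differences of 0.0039 and 0.062 were small beside the SD of 0.160 at this brightness, and the first turned to −0.0062 when the median of all genes was subtracted and to −0.010 with lowess centring. CX3CL1, or fractalkine, read 85.9 in shRAP1 and 86.5 in shNC on the probe set past the floor, a difference of −0.011. These values lay little above the floor of 78.0. Its dimmer probe set, below the floor, read 37.8 in shRAP1 and 32.9 in shNC.

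**Figure D2:**
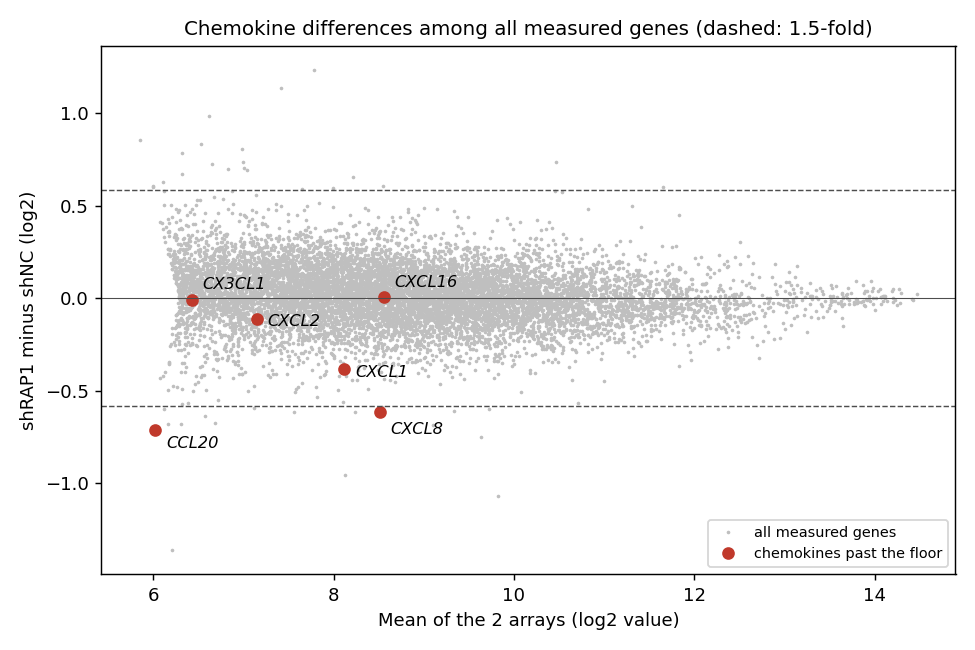
Difference shRAP1 minus shNC (log2, vertical) against the mean log2 value of both arrays (horizontal) for 10437 measured genes (grey) and the 6 chemokines past the floor (red), with 1.5-fold lines dashed. CXCL8 at −0.62 and CCL20 at −0.71 lie below the lower line, CXCL1 at −0.38 lies near the lower edge of the grey cloud, and CXCL2, CX3CL1 and CXCL16 lie within it.

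Counted over probe sets, 9 of the 11 past the floor were lower and 2 higher, against 50.6% and 49.4% of all probe sets past the floor. By at least 1.5-fold 4 were lower, the 3 of CXCL8 and the 1 of CCL20, against 0.186% of such probe sets. Of those 4, 3 passed the floor only through their higher shNC value, so a lower shRAP1 value was built into their selection and the count is a description only. Probe sets of a gene share its RNA and in part its source sequence, and are no replicates. Of the 6 below the floor, 2 were lower and 4 higher, against 44.9% and 55.1% of all such probe sets.

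The 5 members CXCL8, CXCL1, CXCL5, CXCL3 and CXCL2 lie in this order in the chemokine cluster of chromosome 4, in the RefSeq gene order. CCL20, CX3CL1 and CXCL16 lie on chromosomes 2, 16 and 17. Between CXCL8 and CXCL2 lie CXCL6, PF4V1, PF4 and PPBP, which encode a neutrophil attractant and platelet chemokines. Of these, CXCL6 read 15.5 in shRAP1 and 15.1 in shNC, and all 4 stayed below the floor. On the far side of CXCL2, MTHFD2L, a mitochondrial folate enzyme gene, read 192 in shRAP1 and 171 in shNC. The EGF receptor ligand genes EREG and BTC, further along, differed by −0.23 and −0.27. Of 6 genes in this stretch past the floor 5 were lower, against 46.8% of all measured genes, and only MTHFD2L was higher. Among the 5 were the 3 chemokines CXCL8, CXCL1 and CXCL2, which the member counts above already hold, so this count is a description only. The chemokine genes with higher values, CXCL6, PF4V1, PF4 and CXCL5, were all below the floor.

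**Figure D3:**
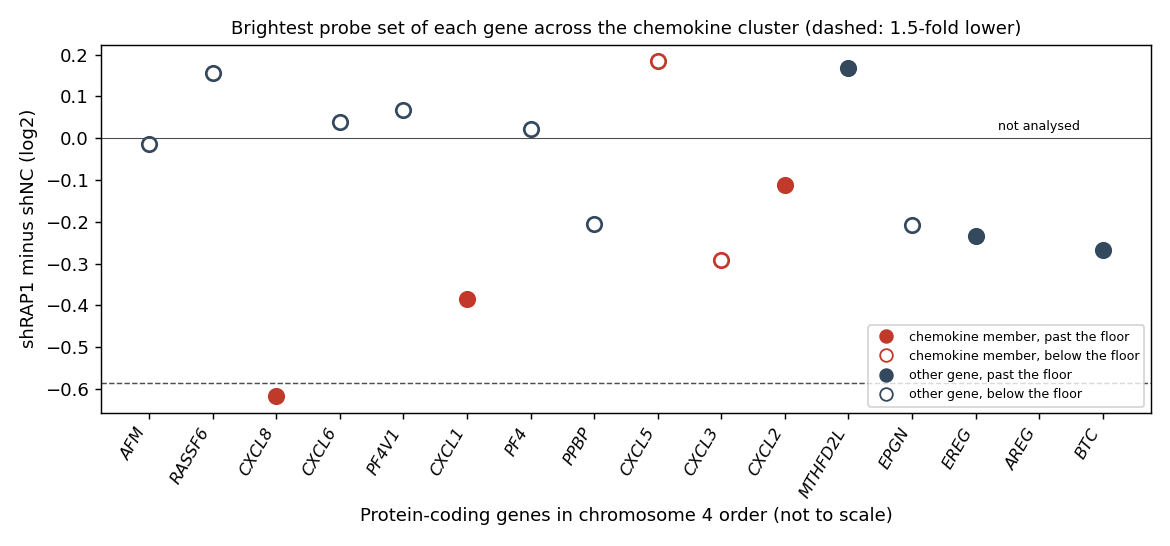
Difference shRAP1 minus shNC (log2) of the brightest probe set of each protein-coding gene in chromosome 4 order, evenly spaced, with chemokine members in red, other genes dark, filled points past the floor and open points below it. CXCL8 at −0.62 and CXCL1 at −0.38 are the lowest points, MTHFD2L stands at 0.17, and AREG was not analysed here.

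In the promoters, GGAATTTCC was found in 5 of the 6 members with a RefSeq window, CXCL1, CXCL2, CXCL3, CXCL5 and CXCL8, searching both strands from 250 bases before to 50 after the gene start. Of 35116 windows of this length, 0.461% held it. The match ended 70 bases before the start in CXCL1 and CXCL3, 69 in CXCL2, 82 in CXCL5 and 83 in CXCL8. CXCL1, CXCL2 and CXCL3 had 23 bases in common around it, ctccgGGAATTTCCctggcccgg, a run found in no other member window. TGANTCA was found in CXCL8 alone among the 6, beginning 137 bases before the start, and in 7.71% of all windows. GGG and CCC with 4 bases between them occurred in CCL20 and CXCL3 and in 17.8% of all windows, and overlapped no match of the other motifs in them. CXCL5, which carried the element and had a signal near the bottom of the scale, and CXCL8, which was 1.53-fold lower in shRAP1, thus shared the same 9 bases. These motifs were chosen after the values and the sequences were seen, and a match is not evidence of binding.

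**Figure D4:**
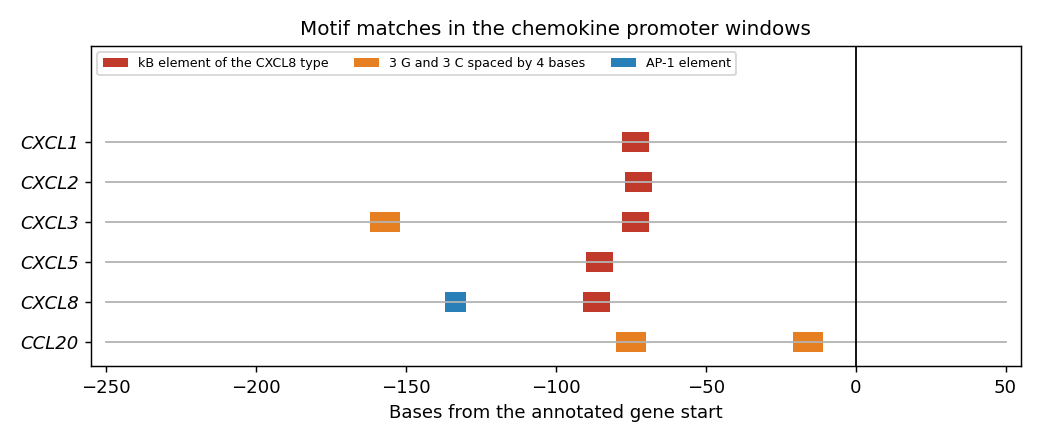
Positions of motif matches in the promoter windows of 6 chemokine genes, in bases from the annotated start (vertical line), with GGAATTTCC in red, GGG and CCC spaced by 4 bases in orange and TGANTCA in blue. The red element lies between 69 and 91 bases before the start in 5 genes, and CCL20 has orange matches only.

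Beyond the members, 49 measured genes had GGAATTTCC in their window, 23 of them lower and 26 higher. Their median difference was 0.0097. Among the 8660 measured genes with a window the median was 0.0072. By 1.5-fold 0 of the 49 differed, against 0.393% of the 8660, a share too small for that 0 to say anything about these genes. KANK1, a cytoskeletal adaptor gene, had the largest size among them, at 544 in shRAP1 and 402 in shNC.

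The genes through which NF-kB acts on chemokines had no common direction. Of 15 such genes 13 were measured, 6 lower and 7 higher, against 46.8% and 53.2% of all measured genes. Their median was 0.020, beside 0.010 for all measured genes. By 1.5-fold 0 of them were lower or higher, against 0.172% and 0.211% of all measured genes. Those shares are too small for that 0 to say anything about these genes. The kinase subunit IKBKB read 264 in shRAP1 and 299 in shNC, a difference of −0.18, with 5 probe sets between −0.33 and 0.036. RELA, the subunit that activates most NF-kB targets, read 681 in shRAP1 and 608 in shNC. Its difference was 0.16, with 3 probe sets between 0.10 and 0.16. TNIP1, an inhibitor of the pathway, and NFKB2 differed by 0.16 and 0.15. Dimmer probe sets of TNIP1 reached 0.24. The activity of these proteins was not measured.

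Inflammatory cytokines and other listed outputs of NF-kB had no common direction. Of the 24 listed genes 21 had a single-gene probe set on the array, and 6 were measured. Of these 6, 2 were lower and 4 higher, against 46.8% and 53.2% of all measured genes. Their median was 0.071, beside 0.010 for all measured genes. By at least 1.5-fold 1 was higher, LCN2, against 0.211% of all measured genes, and 0 were lower, against 0.172%. LCN2, or lipocalin 2, an iron-scavenging antibacterial protein, read 313 in shRAP1 and 207 in shNC, a difference of 0.60 on 1 probe set. CSF1, the macrophage growth factor, differed by 0.15, and IL18, a cytokine stored by epithelium, by 0.14. LTB, a TNF family ligand, differed by −0.068. IL1A, IL1B, IL6, TNF and ICAM1 lay below the floor on both arrays.

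Chemokine mRNAs, CXCL8 among them, are known to be short-lived because proteins bind AU-rich elements at their ends and recruit decay enzymes. All 9 listed genes of this step were measured, 4 lower and 5 higher, against 46.8% and 53.2% of all measured genes. Their median was 0.035, beside 0.010 for all measured genes. ZFP36L2, a decay-promoting zinc finger protein, read 1039 in shRAP1 and 777 in shNC, a difference of 0.42 with all 4 probe sets higher, between 0.28 and 0.60. Its relative ZFP36L1 read 6698 in shRAP1 and 5717 in shNC, a difference of 0.23 with all 6 probe sets higher, between 0.12 and 0.40. TIAL1, an RNA-binding protein of stress granules, was at 0.16 with 7 probe sets between −0.29 and 0.16, and ZC3H12A, an RNase that cleaves inflammatory mRNAs, was at 0.14. ZFP36 and the 4 lower genes differed by less, and are named after their values were seen. ZFP36 read 2558 in shRAP1 and 2497 in shNC, a difference of 0.035 on 1 probe set. ELAVL1, which stabilises such mRNAs, was at −0.083 and the decay factor KHSRP at −0.040. TIA1 was at −0.0017, and HNRNPD, another binder of AU-rich elements, at −0.0057 with 8 probe sets between −0.61 and 0.20. Stability of the chemokine mRNAs was not measured.

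The proteases that release CXCL16 and CX3CL1 were both measured. ADAM10 read 306 in shRAP1 and 267 in shNC, a difference of 0.20 with 4 probe sets between 0.12 and 0.23. ADAM17 read 1073 in shRAP1 and 1132 in shNC, a difference of −0.077 with all 3 probe sets past the floor lower. Neither reached 1.5-fold, and RNA values say nothing of how much ligand was shed.

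The signalling receptors CXCR1, CXCR2, CCR6, CXCR6 and CX3CR1, named because they bind the members and not for their values, all lay below the floor, and the brightest of their probe sets, one of CXCR1, read 33.8 in shRAP1 and 29.3 in shNC. Of 20 receptor genes on the array 3 passed the floor, CCR10 at 0.15, CXCR3 at 0.050 and ACKR1, a non-signalling receptor that also binds CXCL1, CXCL5 and CXCL8, at 0.021. Of 28 other chemokine genes on the array 1 passed it, CCL22, which attracts regulatory T cells, at 155 in shRAP1 and 142 in shNC.

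**Figure D5:**
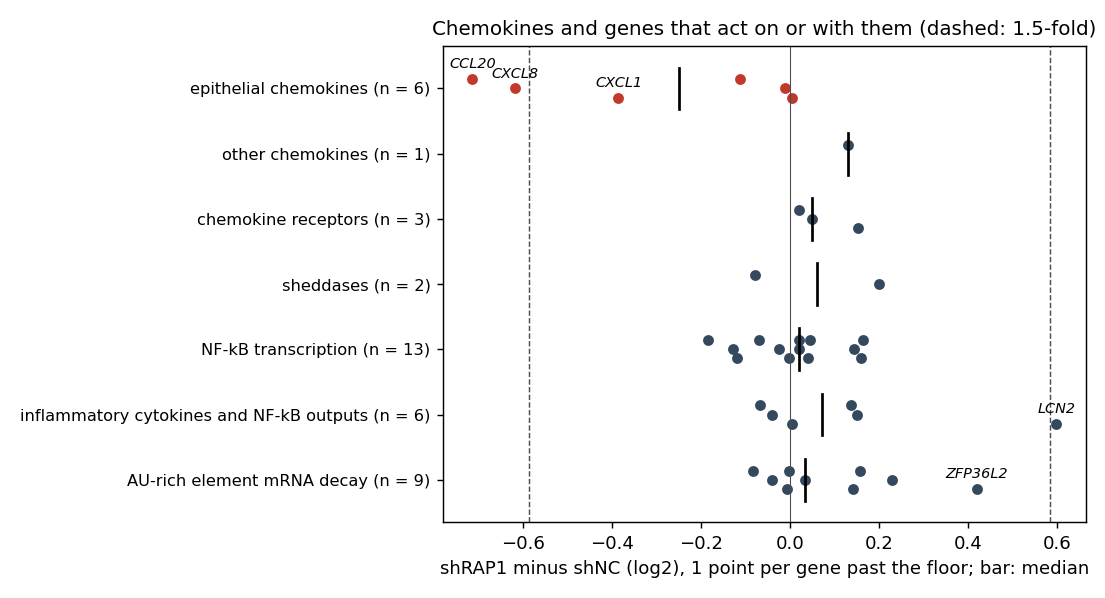
Difference shRAP1 minus shNC (log2) of each gene past the floor in the chemokine family (red) and 6 lists of related genes (dark), with the median of each list as a bar and 1.5-fold lines dashed. CCL20, CXCL8 and CXCL1 stand at the left, LCN2 at 0.60 and ZFP36L2 at 0.42 at the right, and the 13 NF-kB genes lie between −0.18 and 0.16.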

How the data were processed

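Gene expression was measured in 2 RNA samples of HCT116 cells, 1 shRAP1 and 1 shNC, on Affymetrix arrays after amplification with a kit primed at the poly(A) tail, per the labels' protocols. The authors deposited 1 linear intensity value for each probe set and array, made with RMA per the submitters' processing notes, without a stated version. RMA corrects background, equalises the distribution of values between arrays and summarises probes, so a difference is relative to the rest of the array. The linear scale was read from the values, and log2 was taken here with no pseudocount. The planned comparison allowed for this.

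Symbols came from the platform annotation. Of 49293 non-control probe sets 1832 carried several symbols and 2473 none, and these were used for no gene. All 8 members matched the RefSeq table of GRCh38.p14, and 6 had a promoter window. Named were all members with every probe set, TERF2IP, RAP1A and RAP1B, up to 4 measured genes of each related list by size of difference, and both proteases. Other genes were named outside this rule, and only some of them are marked so in the text. Unmarked ones include the cell type markers, the chromosome 4 neighbours, KANK1, CYP24A1, IL1A, IL1B, IL6, TNF and ICAM1. The members, lists and tests were chosen with earlier results of these data known. The computation was tested on simulated data. Alternatives changed the probe set rule, the floor, the probe sets admitted, the centring (a lowess span of 0.3), the pseudocount and the size counted. The number of arrays limits the precision. Software was Python 3.11.15, numpy 2.4.6, pandas 2.3.3, statsmodels 0.14.6 and matplotlib 3.10.9.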

Additional observations from a re-analysis of the deposited data

How the results depend on the processing

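Of 79 values recomputed under other settings, 67 stayed within the spread of genes of like brightness or within 1.5 times the main count. The other 12 did not, and 0 called differences changed sign. Only CXCL8, CCL20 and the median over the measured members could be counted as changing sign. Part of the 67 could not move, so that count overstates how far the results were tried. CCL20 has 1 probe set, which the probe set rules return unchanged. With no floor every measured member kept its main difference. CXCL8 was lower under every setting run, at −0.78 with the median of its probe sets and at −0.94 when names ending in _x_at or _s_at were left out, beside −0.62. Without those probe sets CXCL1 was at −0.092. With values under the floor set to the floor, a setting chosen after seeing the data, CCL20 was at −0.092. CXCL2 was at −0.26 with log2(value + 16), beside −0.11. The median over the measured members, −0.25, was −0.10 both without the _x_at and _s_at names and with values set to the floor. The 2 members at least 1.5-fold lower became 1 with that setting, 1 with a floor of 312, the 75th percentile, 1 with log2(value + 16) and 0 at a size of 2-fold. The 5 lower members became 2 of 3 measured at the higher floor. The 1 higher member, CXCL16, became 0 with median or lowess centring, and with no floor 2 members were higher. The higher floor leaves fewer genes, and CCL20, CXCL2 and CX3CL1 have no value there. The cause of the CXCL1 and CXCL8 shifts was not tested. No paired analysis was possible because each group had 1 array.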

Other observations

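The chemokines outside the family described above were dim in this line. For 27 of them the brightest probe set stayed below the floor, with levels between 7.22 and 54.9 in shRAP1 and between 7.73 and 56.9 in shNC. Of these 10 were lower and 17 higher, against 44.9% and 55.1% of all probe sets below the floor. CXCL10, which attracts activated T cells and is induced by interferon, read 15.8 in shRAP1 and 20.6 in shNC. CCL2, the main monocyte attractant, read 8.78 in shRAP1 and 10.1 in shNC. Both were named after their values were seen.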
